A study of Mus musculus with 24 samples.

Results

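The 10 genes described here, H19, Igf2, Meg3, Rian, Mirg, Dlk1, Peg3, Cdkn1c, Grb10, and Igf2r, were chosen by name as imprinted genes that are followed in muscle, out of 56941 genes in the count table. An imprinted gene is transcribed mainly from the copy inherited from the mother or mainly from that of the father, because the copies carry different DNA methylation marks at a control region. At the H19-Igf2 locus, the maternal copy makes H19, a noncoding RNA, and the paternal copy makes Igf2, a growth factor that promotes the differentiation of myoblasts. At the Dlk1-Dio3 locus, the maternal copy makes the noncoding RNAs Meg3, Rian, and Mirg with a large cluster of microRNAs and small nucleolar RNAs, and the paternal copy makes the membrane protein Dlk1. The other 4 genes are Peg3, a paternally expressed zinc finger protein, and 3 genes that are mainly maternally expressed in muscle. These are Cdkn1c, an inhibitor of cyclin-dependent kinases that restrains the cell cycle, Grb10, an adaptor that dampens insulin and IGF receptor signaling, and Igf2r, the receptor that takes IGF2 to the lysosome.

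The genes were measured by bulk RNA sequencing in 2D muscle grown on fibrin hydrogel from C2C12 myoblasts, a mouse line that fuses into muscle fibers, with the genotype ChR2::tdTomato in every group. ChR2 is a blue light-gated channel that lets light trigger contraction. The control group received no light, and the 3 other groups received a daily session of 30 min at a frequency of 1, 4, or 10 Hz. Each of the 4 groups had 6 libraries, which makes 24 in all. In all groups, differentiation took place in horse serum with added IGF-1, a ligand of the same IGF receptor that binds IGF2. All tissues came from 1 engineered line. The sources used here give neither whether it is a single clone nor which promoter drives ChR2. The RNA was of whole tissues without allele information, so which parental copy was transcribed was not measured.

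Total counts ranged from 4.09 to 15.2 M (mega) per library, with a median of 7.48 M. All 10 differentiated muscle markers passed the low-count filter, and their summed level was 5716 to 7328 TPM in control libraries. Of the markers of other cell types, 3 of 6 for adipocytes, 1 of 5 for osteoblasts, 2 of 6 for fibroblasts, and 2 of 5 for endothelial or blood cells passed it. The submitters noted that low-input samples were made by ribodepletion in place of poly(A) selection and did not name them. RNAs without a poly(A) tail therefore bear on the library type. The share of 19 such small RNAs, in CPM (counts scaled to a fixed library total), was 130 ± 23.6 in control, 29.3 ± 21.4 at 1 Hz, 26.3 ± 12.4 at 4 Hz, and 124 ± 87.0 at 10 Hz (SD, n = 6 each). It was lower than control in 6 of 6 libraries at 1 Hz and at 4 Hz, with no overlap of the groups (2-sided exact permutation p = 0.00216 each, the smallest that 924 splits allow, Benjamini-Hochberg (BH) adjusted p = 0.00325 over 3 comparisons). At 10 Hz, the groups overlapped (exact permutation p = 0.892, BH adjusted p = 0.892). Library type and light stimulation cannot be told apart at 1 and 4 Hz.

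The sequences bearing on these loci are shown first. H19 (ENSMUSG00000000031) lies at chr7:142129262-142133957 on the minus strand in the GRCm39 build of the mouse genome. GENCODE M39 gives its main transcript 6 exons, and the hairpin of miR-675 (chr7:142130801-142130884) lies within exon 2. Its 5p and 3p mature forms are given by RefSeq from 5′ to 3′, with the seed, bases 2 to 8, in capitals.
miR-675-5p: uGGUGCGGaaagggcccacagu
miR-675-3p: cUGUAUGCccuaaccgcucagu

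The neighboring gene Igf2 (ENSMUSG00000048583, chr7:142204503-142220694, minus strand) hosts miR-483 in an intron, at chr7:142208661-142208733. The start sites of H19 and Igf2 are 86.7 kb apart. Both hairpins lie on the strand of their host, and the seeds of their mature forms differ from one another.
miR-483-5p: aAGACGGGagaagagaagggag
miR-483-3p: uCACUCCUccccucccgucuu

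On chromosome 12, RefSeq lists 101 mature microRNAs from 54 hairpins on the plus strand between the start of Meg3 (chr12:109506877-109538165) and the end of Mirg (chr12:109696198-109715898). Of these hairpins, 14 lie within Mirg. The 100 distinct mature sequences have 92 distinct seeds, and 8 seeds are each shared by 2 of them. The 4 pairs given here are examples of a shared seed, in capitals, and their likeness beyond the seed varies.
miR-379-5p: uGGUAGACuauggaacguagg
miR-1193-5p: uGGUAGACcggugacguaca
miR-379-3p: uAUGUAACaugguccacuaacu
miR-411-3p: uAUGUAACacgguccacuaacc
miR-410-5p: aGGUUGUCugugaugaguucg
miR-494-5p: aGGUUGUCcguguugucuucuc
miR-376b-5p: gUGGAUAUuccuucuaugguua
miR-376c-5p: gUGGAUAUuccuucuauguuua

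The upstream Meg3 promoter is printed because the maternal RNAs of this locus start from it and beyond, and all of them were at or near 0 counts here. The RefSeq window, from a table of build GRCm38.p6, of 250 bases before to 50 bases after the start matched GRCm39 at chr12:109506629-109506928 on the plus strand, and CG dinucleotides, the sites of DNA methylation, are in capitals.
Meg3 promoter: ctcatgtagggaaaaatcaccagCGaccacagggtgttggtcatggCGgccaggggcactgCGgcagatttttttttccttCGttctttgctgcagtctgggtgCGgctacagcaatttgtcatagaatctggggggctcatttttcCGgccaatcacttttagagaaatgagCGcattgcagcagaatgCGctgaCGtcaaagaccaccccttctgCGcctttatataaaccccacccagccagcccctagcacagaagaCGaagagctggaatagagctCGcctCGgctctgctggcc

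This window holds 13 CG dinucleotides, against a median of 7 in 32851 RefSeq promoter windows of the same length, and its GC content is 53.7%. The motif TATAAA, searched on both strands, occurs in it, as it does in 13.6% of all windows. The motifs CANNTG, which is its own reverse complement, and GGGCGG, on both strands, do not occur in these letters, and 72.3% and 35.7% of all windows hold them. DNA methylation was not measured. The table held windows for 8 of the 10 genes, all but H19 and Cdkn1c.

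The clearest pattern was the difference between the loci. H19 was among the most abundant RNAs of the tissue in every library, Igf2 was well expressed, and the 4 genes of the Dlk1-Dio3 locus were at or near 0 counts. Levels between genes are compared in TPM, a transcript abundance corrected for transcript length and scaled to a fixed total per library. H19 had a lowest, median, and highest level of 9833, 12645, and 14304 TPM over the 24 libraries. It ranked above every other gene by TPM in 15 of the 24 libraries and by count in 22 of them, and it was never below rank 4 by TPM. It held 1.82 ± 0.159% of all counts in control, 1.76 ± 0.0983% at 1 Hz, 1.97 ± 0.162% at 4 Hz, and 1.62 ± 0.148% at 10 Hz (SD, n = 6 each). The coefficient of variation of its TPM over the 24 libraries was 9.16%, the lowest of the 6 expressed members.

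The level of Igf2 was 133, 180, and 216 TPM at the lowest, median, and highest library. The 2 genes that share the locus thus differed 70.2-fold in mean TPM. Their ratio within a library was 71.5 ± 3.04 in control, 71.1 ± 9.60 at 1 Hz, 74.7 ± 5.33 at 4 Hz, and 65.7 ± 8.05 at 10 Hz (SD, n = 6 each), and ranged from 58.7 to 86.7. The groups overlapped in this ratio, and it was not tested. The reads of Igf2 (61321 counts in all) could be shared with the overlapping annotations Gm49394 (592 counts) and the antisense gene Igf2os (53 counts), because it was not given whether counting used strand.

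Within 1200 kb on either side of H19, 121 annotated genes had a row in the table, and H19 held 75.0% of their counts. In the same window, 29 of 64 protein-coding genes reached 1000 counts over the 24 libraries. These included the muscle troponin gene Tnnt3 with 158540 counts, the lysosomal protease gene Ctsd with 278235, and the tetraspanin gene Cd81 with 86304. The hairpin genes Mir675 and Mir483 had 0 counts in all libraries. Libraries of long RNA do not capture mature microRNAs, so that these values say nothing of miR-675 or miR-483 themselves.

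The Dlk1-Dio3 locus gave a different picture. Over 24 libraries and 187 M counts, Meg3 had 11 counts spread over 9 libraries, Rian had 11 counts over 7 libraries, Dlk1 had 2 counts in 2 libraries, and Mirg had 0 counts. In no library did any of these 4 genes exceed 3 counts. Meg3 was thus at 0.0588 CPM of all counts (95% exact Poisson interval 0.0294 to 0.105 CPM), as was Rian, and Dlk1 was at 0.0107 CPM (interval 0.00130 to 0.0386 CPM). For Mirg, with 0 counts, the upper end of this interval is 0.0197 CPM, and the limit of 3 counts in all is 0.0160 CPM. These intervals cover counting error only. In a single library, the same limit of 3 counts corresponds to 0.197 CPM at the greatest depth and 0.734 CPM at the least.

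The few counts of Meg3 showed no group that stood apart. They amounted to 1 count in control, 3 at 1 Hz, 4 at 4 Hz, and 3 at 10 Hz, and those of Rian to 2, 2, 1, and 6 counts. The data thus go against calling Meg3, Rian, Mirg, and Dlk1 genes expressed in this tissue, and no difference between groups was detectable in them at this depth. All 4 fell below the low-count filter and were not tested.

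The absence of counts extended over the whole domain. From Dlk1 to Dio3, GENCODE M39 annotates 128 genes over 829 kb, of which 116 had a row in the table and 106 had 0 counts in every library. The 10 others summed to 153 counts, of which 117 belonged to Gm3379, a processed pseudogene with fractional counts, whose reads may be shared with other loci. Without it, 36.0 counts remained. Of 67 microRNA genes, 1 had a count, and of 23 small nucleolar RNA genes, none had. Most of the 116 genes are of these 2 kinds. Such genes were at 0 counts even within abundant hosts, as Mir675 within H19 and Snora52 within Rplp2 (86514 counts). Their zeros therefore say little of whether the domain was transcribed. Rtl1, the paternally expressed retrotransposon-like gene of the locus, had 1 count, and Dio3, a thyroid hormone deiodinase gene at its far end, had 0 counts. Beyond the domain, counts returned. Within 1200 kb of the Meg3 start, 9 of 14 protein-coding genes outside the domain reached 1000 counts, among them the tRNA synthetase gene Wars1 with 17324 on the Dlk1 side, and the phosphatase subunit gene Ppp2r5c with 17514 and the dynein heavy chain gene Dync1h1 with 74319 on the Dio3 side.

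**Figure D1:**
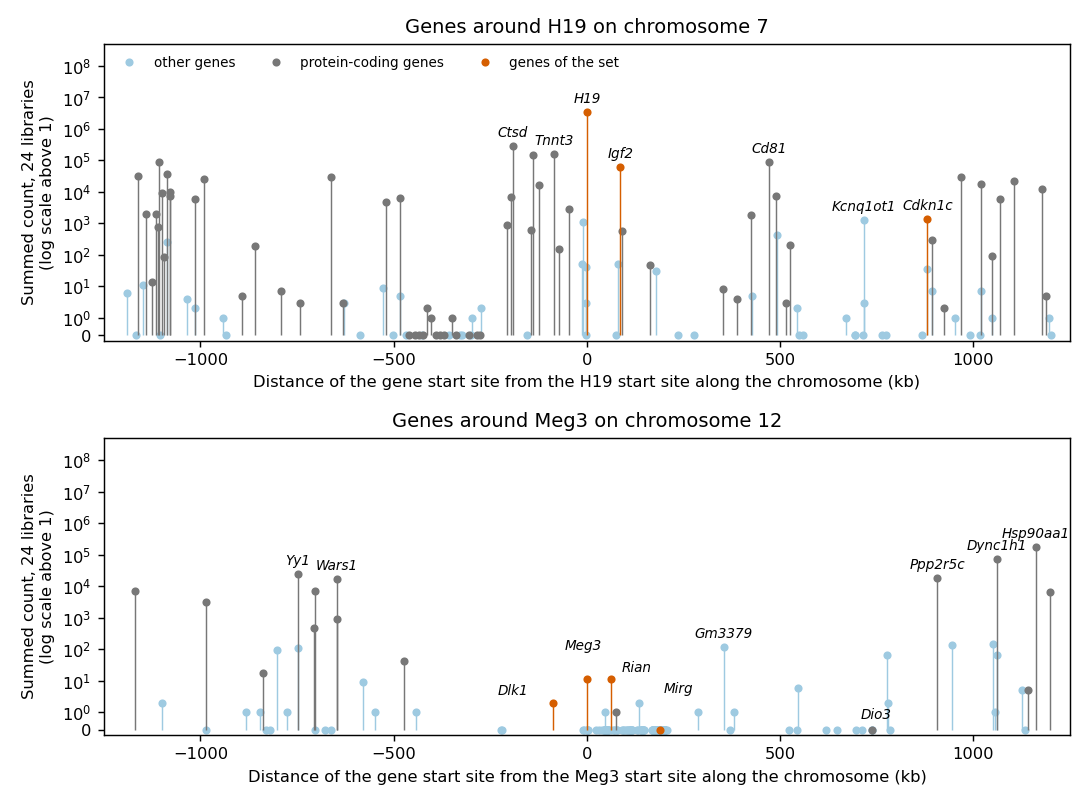
Summed count of each annotated gene over the 24 libraries (y axis, log scale above 1 and linear below) against the distance of its start site from that of H19 on chromosome 7 or Meg3 on chromosome 12 (x axis, kb), with genes of the set in orange, other protein-coding genes in gray, and other genes in light blue. H19 is the tallest line of its window, and the stretch from Dlk1 to Dio3 stays near 0 while genes on both sides reach 1000 counts or more.

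The 6 expressed members kept a clear order by TPM. Igf2 was above Peg3 (29.2, 42.5, and 54.0 TPM at the lowest, median, and highest library), and Peg3 was above Igf2r (12.1, 16.8, and 26.0 TPM), in 24 of 24 libraries and with separate ranges. Igf2r was above Cdkn1c (3.89, 9.38, and 15.3 TPM) in 23 of 24 libraries, and Cdkn1c was above Grb10 (2.76, 4.47, and 7.77 TPM) in 24 of 24, but the ranges of these neighbors overlapped. Cdkn1c varied most between libraries, with a coefficient of variation of 30.8%, against 23.8% for Grb10, 21.5% for Igf2r, 16.9% for Peg3, and 11.2% for Igf2.

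**Figure D2:**
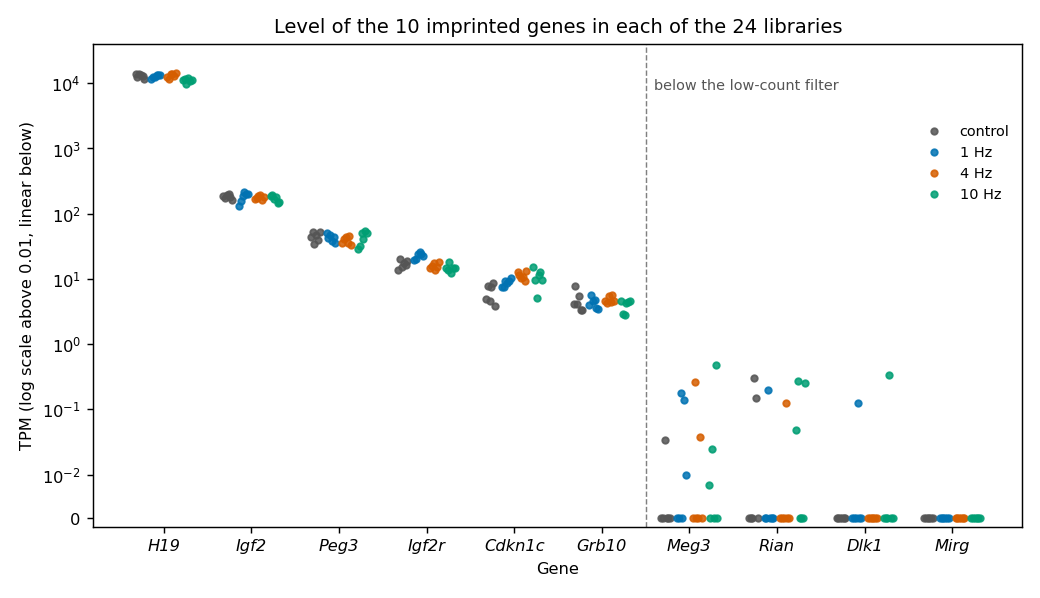
TPM of each of the 10 genes (y axis, log scale above 0.01 and linear below) in each library, with points colored by group. The 6 genes to the left of the dashed line are expressed in all 24 libraries, with H19 at 9833 to 14304 TPM, and Meg3, Rian, Dlk1, and Mirg are at 0 in most libraries.

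Genes were then compared between groups. The values are CPM scaled by the trimmed mean of M-values (TMM), which serve to compare a gene between groups but not genes with each other, and the tests are edgeR quasi-likelihood tests with BH adjustment over the 13318 genes tested. A gene is said to be called when its adjusted p was below 0.05 and its absolute log2 fold change above 0.5. In bulk tissue, fewer cells of a type and less RNA per cell cannot be told apart.

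Among the 6 members tested, 0 were called at 1 Hz against control, where 9.34% of all tested genes were called upregulated and 8.99% downregulated. At 4 Hz, 1 member, Cdkn1c, was called upregulated and 0 downregulated, where the shares over all genes were 10.5% and 9.61%. At 10 Hz, 0 were called in either direction, and 1.24% of all genes were called upregulated and 0.623% downregulated. The median log2 fold change of the 6 members was 0.055 at 1 Hz, 0.16 at 4 Hz, and -0.074 at 10 Hz, beside -0.0072, -0.014, and -0.0064 over all genes tested. At an unadjusted p below 0.05, the members numbered 2, 2, and 1 by edgeR. The share of all genes at that limit is not given here. By adjusted p alone, 1, 2, and 0 members passed. Over all genes, that rule passed 2414 upward and 2306 downward for the 1 Hz group. It passed 2558 and 2693 for the 4 Hz group, and 356 and 295 for the 10 Hz group. DESeq2 called 0, 1, and 1 upregulated and 0 downregulated at each frequency, with Cdkn1c as the member at 10 Hz. Over all genes, its upregulated calls totaled 1260, 1423, and 191, and its downregulated calls 1205, 1262, and 98. The comparisons with control share the 6 control libraries. Calls over all genes were fewer with the small RNA share as a covariate. The genes called upregulated and downregulated then numbered 1 and 0 at 1 Hz, against 1244 and 1197 without it. They numbered 152 and 99 at 4 Hz, against 1396 and 1280, and 125 and 81 at 10 Hz, against 165 and 83. The share separated the 1 and 4 Hz groups from control without overlap. At these frequencies, the fit therefore cannot tell the part of the share from that of light.

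Cdkn1c showed the largest difference. Its level was 1.67, 4.84, and 6.26 CPM at the lowest, median, and highest control library and 8.12, 9.46, and 12.1 CPM at 4 Hz. All 6 libraries at 4 Hz were above all 6 control libraries. The log2 fold change was 1.06 ± 0.23 (SE), a 2.09-fold difference (adjusted p = 0.000727, edgeR). The counts behind it were low, with 8 to 50 counts per library in control and 62 to 123 at 4 Hz.

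At the other frequencies, Cdkn1c overlapped with control. It was at 5.18, 6.34, and 8.61 CPM at 1 Hz, with a log2 fold change of 0.50 ± 0.24 (SE, adjusted p = 0.103, edgeR). At 10 Hz it was at 3.55, 8.004, and 10.3 CPM, with the widest spread of the 4 groups, and the log2 fold change was 0.70 ± 0.24 (SE, adjusted p = 0.0804, edgeR). Without the 10 Hz library 3, the lowest of its group, the latter value was 0.85 and passed the thresholds (adjusted p = 0.0174). The 4 Hz libraries differed from those at 1 Hz by 0.56 ± 0.22 (log2, SE, adjusted p = 0.0905) and those at 10 Hz from those at 4 Hz by -0.36 ± 0.21 (log2, SE, adjusted p = 0.229), and neither passed.

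Other measures moved with Cdkn1c at 4 Hz. Of the 10 differentiated muscle markers, 7 were called upregulated at 4 Hz, beside 10.5% of all genes. The summed level of these markers was 7824 to 11818 TPM against 5716 to 7328 TPM in control. Of 7 markers of proliferating cells, 3 (Top2a, Ccna2, and Mki67) were called upregulated, while the summed level of the list was 138 to 183 TPM against 194 to 236 TPM. The part of these markers in the Cdkn1c value was not tested. The small RNA share also differed between these groups, and with that share as a covariate, the log2 fold change of Cdkn1c at 4 Hz was 0.57 and no longer passed (adjusted p = 0.411). The share separates these groups without overlap, and the parts of share and light cannot be told apart.

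Igf2r differed at 1 Hz. Its level was 84.4, 102, and 112 CPM at the lowest, median, and highest control library and 120, 144, and 166 CPM at 1 Hz, so that all 6 libraries at 1 Hz were above all 6 of control. The log2 fold change of 0.49 ± 0.096 (SE) passed the adjusted p (0.000374, edgeR) and fell just short of the fold threshold of 0.5. In TPM the groups touched, at 13.6 to 20.0 in control and 19.5 to 26.0 at 1 Hz. With the small RNA share as a covariate, the value was 0.43 (adjusted p = 0.281). It passed the fold threshold as well when control library 2 or 6 or 1 Hz library 1 or 2 was left out (0.52 to 0.53). Markers of several cell types also differed between these groups. At 1 Hz, 6 of the 10 differentiated muscle markers were called upregulated, beside 9.34% of all genes. Their summed level was 8173 to 11221 TPM against 5716 to 7328 TPM in control. The summed level of the 6 adipocyte markers was 31.6 to 41.0 TPM against 25.0 to 29.3 TPM, and that of the 5 osteoblast markers 17.0 to 25.7 TPM against 9.69 to 14.6 TPM, without overlap. The part of these markers in the Igf2r value was not tested.

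The other frequencies did not share this level of Igf2r. It was at 96.3, 103, and 127 CPM at 4 Hz and 78.8, 92.0, and 118 CPM at 10 Hz, and both groups overlapped with control. The log2 fold changes were 0.096 ± 0.096 (SE, adjusted p = 0.444, edgeR) and -0.11 ± 0.096 (SE, adjusted p = 0.579, edgeR). Between frequencies, Igf2r was the member called. All 6 libraries at 10 Hz were below all 6 at 1 Hz, with a log2 fold change of -0.59 ± 0.096 (SE, adjusted p = 4.11e-05, edgeR). In that comparison, 9.45% of all genes were called upregulated and 8.49% downregulated, and with the small RNA share as a covariate the value was -0.54 (adjusted p = 0.0438). Igf2r was also lower at 4 Hz than at 1 Hz, with a log2 fold change of -0.39 ± 0.095 (SE, adjusted p = 0.00797, edgeR), under the fold threshold. In that comparison, 0 members were called by edgeR or DESeq2 (3 at an unadjusted p below 0.05 by edgeR), and 1.59% and 1.4% of all genes were called upregulated and downregulated. Between 10 and 4 Hz the log2 fold change was -0.20 ± 0.095 (SE, adjusted p = 0.128, edgeR).

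**Figure D3:**
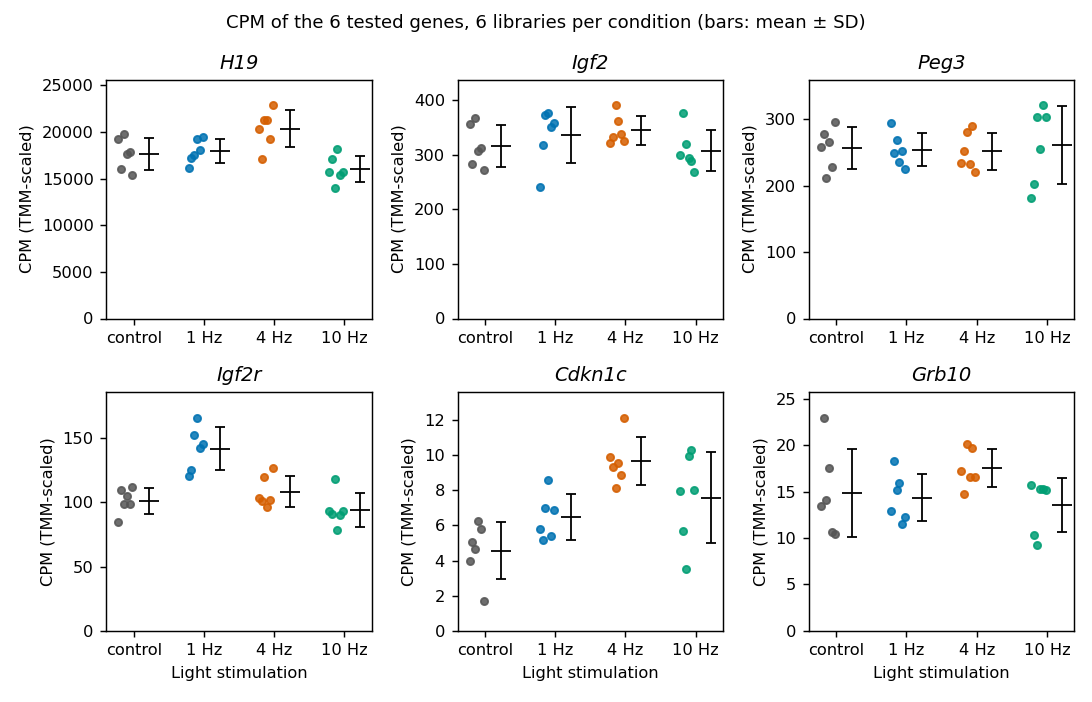
TMM-scaled CPM (y axis, from 0) of the 6 tested genes in each library (points) by light stimulation (x axis), with the mean ± SD of 6 libraries as bars. Cdkn1c at 4 Hz (8.12 to 12.1 CPM) and Igf2r at 1 Hz (120 to 166 CPM) lie entirely above their control libraries, and the groups overlap for H19, Igf2, Peg3, and Grb10.

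H19 remained within a narrow range. It was at 15425, 17748, and 19763 CPM at the lowest, median, and highest control library, 16142, 17801, and 19469 CPM at 1 Hz, 17118, 20766, and 22866 CPM at 4 Hz, and 14036, 15736, and 18185 CPM at 10 Hz. Each stimulated group overlapped with control. The log2 fold change was 0.023 ± 0.082 at 1 Hz (SE, 95% interval -0.15 to 0.19, adjusted p = 0.853), an interval that lies within the fold threshold. It was 0.20 ± 0.082 at 4 Hz (SE, adjusted p = 0.0483), past the adjusted p alone, and -0.14 ± 0.082 at 10 Hz (SE, adjusted p = 0.344).

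The largest H19 difference was between frequencies. It was lower at 10 Hz than at 4 Hz, with a log2 fold change of -0.34 ± 0.082 (SE, adjusted p = 0.00396, edgeR) and 5 of 6 libraries at 10 Hz below all 6 at 4 Hz, and this also stayed under the fold threshold. With the small RNA share as a covariate it was -0.31 (adjusted p = 0.532). The members called between 10 and 4 Hz numbered 0 by edgeR and DESeq2 (3 at an unadjusted p below 0.05 by edgeR), with 5.32% of all genes upregulated and 5.64% downregulated. In TPM, the H19 mean was 13012 ± 840 in control, 13170 ± 999 at 4 Hz, and 11094 ± 727 at 10 Hz (SD, n = 6 each). By limma on log2(TPM + 1), the difference from control was 0.017 at 4 Hz and -0.23 at 10 Hz. Over the main and 11 alternative fits (edgeR, DESeq2, and limma), the adjusted p of H19 at 10 Hz ranged from 0.0326 to 0.630. At 4 Hz, its lowest value was 0.0194, and not all fits passed. The fold threshold was not passed by any of these fits at either frequency. Between 4 and 1 Hz, H19 differed by 0.18 ± 0.082 (log2, SE, adjusted p = 0.147), and between 10 and 1 Hz by -0.16 ± 0.082 (log2, SE, adjusted p = 0.119).

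Igf2 did not pass the test at any frequency. It was at 272, 310, and 368 CPM at the lowest, median, and highest control library, 240, 355, and 378 CPM at 1 Hz, 322, 335, and 391 CPM at 4 Hz, and 268, 296, and 377 CPM at 10 Hz. The 95% interval of its log2 fold change was -0.12 to 0.30 at 1 Hz (adjusted p = 0.517), -0.086 to 0.33 at 4 Hz (adjusted p = 0.344), and -0.25 to 0.17 at 10 Hz (adjusted p = 0.864). These intervals hold 0 and exclude a change of the size of the fold threshold.

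Peg3 and Grb10 did not pass the test either. Peg3 was at 256 ± 31.6 CPM in control, 254 ± 25.0 at 1 Hz, 252 ± 28.1 at 4 Hz, and 261 ± 58.1 at 10 Hz (SD, n = 6 each), with log2 fold changes of -0.012 ± 0.12, -0.025 ± 0.12, and 0.027 ± 0.12 (SE, adjusted p = 0.950, 0.887, and 0.931). At 10 Hz, its libraries spread from 181 to 321 CPM, wider than control on both sides. Grb10 was at 14.9 ± 4.74 CPM in control, 14.3 ± 2.55 at 1 Hz, 17.5 ± 2.06 at 4 Hz, and 13.5 ± 2.91 at 10 Hz (SD, n = 6 each), with log2 fold changes of -0.076 ± 0.17, 0.22 ± 0.17, and -0.15 ± 0.17 (SE, adjusted p = 0.757, 0.312, and 0.662). Its 95% intervals at 4 Hz, -0.13 to 0.56, and at 10 Hz, -0.51 to 0.20, do not exclude a change past the fold threshold.

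**Figure D4:**
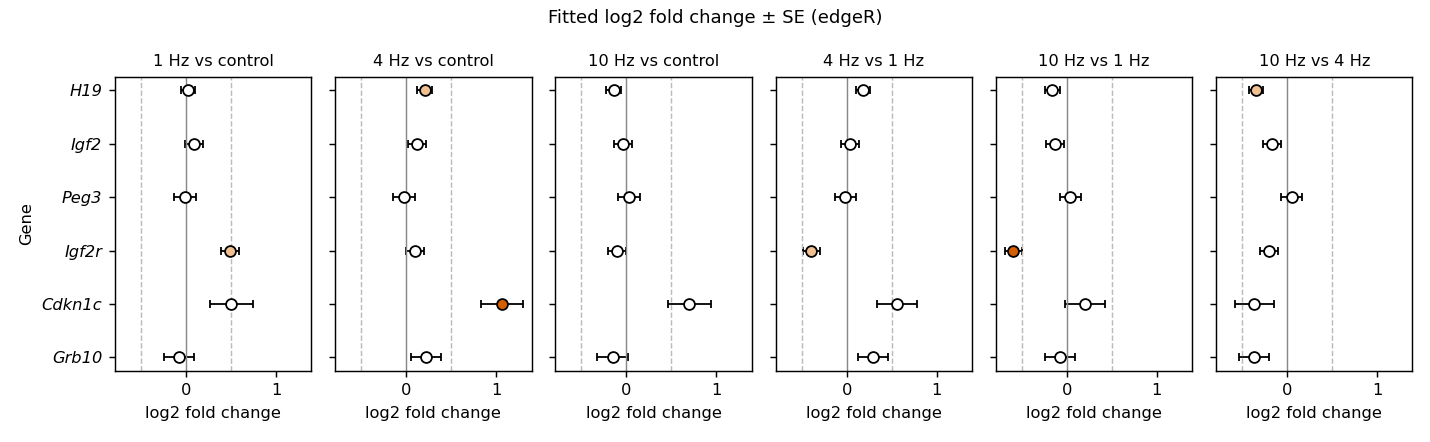
Fitted log2 fold change ± SE (x axis) of the 6 tested genes (y axis) in the 6 comparisons, with dashed lines at ±0.5. Dark orange points pass the adjusted p and the fold threshold (Cdkn1c at 4 Hz against control and Igf2r at 10 Hz against 1 Hz), light orange points pass the adjusted p alone, and open points pass neither.

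Other genes of the IGF2 pathway were counted next. Of 9 listed genes for IGF receptors, IGF binding proteins, and Igf2 mRNA-binding proteins, 6 were tested. At 1 Hz, 4 of the 6 were called upregulated and 0 downregulated, beside 9.34% and 8.99% of all genes, with a median log2 fold change of 0.73. Igfbp5, which encodes a secreted IGF binding protein of differentiating muscle, rose from 514 ± 86.2 to 1122 ± 193 CPM (SD, n = 6 each, log2 fold change 1.13 ± 0.15 (SE), adjusted p = 7.24e-06). Igfbp4 rose from 3.27 ± 0.711 to 9.85 ± 3.52 CPM, and Igf1r, the receptor that signals for IGF1 and IGF2, from 16.7 ± 2.03 to 28.8 ± 4.97 CPM (SD, n = 6 each). The remaining called gene was Igfbp2. At 4 Hz, 2 were called upregulated, Igfbp4 (8.81 ± 2.70 CPM) and Igfbp5 (1018 ± 183 CPM), beside 10.5% of all genes, with a median of 0.46. At 10 Hz, 0 were called by edgeR, beside 1.24% and 0.623% of all genes, and 1 had an unadjusted p below 0.05 (median -0.011). By edgeR with the small RNA share as a covariate, 0 of the 6 were called at any frequency, and the medians were 0.56, 0.30, and -0.074. Over all genes, that fit called 1 upregulated and 0 downregulated at 1 Hz. It called 1.14% and 0.743% at 4 Hz, and 0.939% and 0.608% at 10 Hz. Counts of 0 under this fit therefore say little of any list. Igfbp5 at 1 Hz was then at 0.65 ± 0.20 (log2, SE, adjusted p = 0.227, edgeR).

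Reported targets of miR-675, namely Smad1, Smad5, Cdc6, and Igf1r, not all of them reported in muscle cells, were all tested. At 1 Hz, Igf1r was called upregulated as above, and Cdc6, a replication licensing factor, was called downregulated, beside 9.34% and 8.99% of all genes. At 4 Hz, Cdc6 was called downregulated and the other 3 were not called, beside 10.5% of all genes upregulated and 9.61% downregulated. At 10 Hz, 0 of 4 were called by edgeR or had an unadjusted p below 0.05. There, 1.24% and 0.623% of all genes were called. The median log2 fold changes were 0.16, 0.12, and 0.0013. With the small RNA share as a covariate, 0 of the 4 were called at any frequency by edgeR. That fit called 1 of all genes upregulated and 0 downregulated at 1 Hz, and few at 4 and 10 Hz. The count of 0 thus says little of this list.

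Imprinted genes outside the set were counted in the same way. Of 24 listed paternally expressed genes, 15 were tested, and all that were called were lower than control, namely 4 at 1 Hz, 5 at 4 Hz, and 0 at 10 Hz by edgeR, where 1 had an unadjusted p below 0.05. Over all genes, 8.99%, 9.61%, and 0.623% were called downregulated, and 9.34%, 10.5%, and 1.24% upregulated. The medians were -0.15, -0.30, and -0.11 (log2). Kcnq1ot1, a noncoding RNA that silences the domain holding Cdkn1c on the paternal copy, fell at 1 Hz from 8.08 ± 2.64 to 3.17 ± 1.40 CPM (SD, n = 6 each, log2 fold change -1.36 ± 0.30 (SE), adjusted p = 0.00110, edgeR). Mcts2, a retrogene copy of a translation factor gene, fell from 14.3 ± 2.14 to 7.14 ± 2.28 CPM under 1 Hz light and to 7.21 ± 1.63 CPM under 4 Hz light (SD, n = 6 each). Peg13, a noncoding RNA, fell at 4 Hz from 33.8 ± 3.35 to 21.6 ± 2.55 CPM (SD, n = 6 each). The other calls were Mest and Mkrn3 at both frequencies and Ndn at 4 Hz. Kcnq1ot1 was at 6.46 ± 2.66 CPM at 4 Hz (SD, n = 6), which did not pass against control (adjusted p = 0.362, edgeR). It was called higher at 4 Hz than at 1 Hz (log2 fold change 1.03, adjusted p = 0.0235, edgeR). The part of library type in this difference was not tested. With the small RNA share as a covariate, 0 of the 15 were called at 1 Hz by edgeR (Kcnq1ot1 -0.52, adjusted p = 0.711), and 1, Peg13, was called at 4 Hz (-0.65, adjusted p = 0.0282). Over all genes, that fit called 1 upregulated and 0 downregulated at 1 Hz, and 1.14% and 0.743% at 4 Hz.

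Of 23 listed maternally expressed genes, 14 were tested, and 3 were called upregulated and 0 downregulated at 1 Hz. At 4 Hz, 3 were called upregulated and 1 downregulated, and at 10 Hz 0 were called by edgeR or had an unadjusted p below 0.05, with medians of 0.29, 0.13, and -0.032 (log2). The shares of all genes called upregulated were 9.34%, 10.5%, and 1.24%, and those called downregulated 8.99%, 9.61%, and 0.623%. In the fit with the small RNA share as a covariate, 0 of the 14 were called at 1 Hz by edgeR, and 1, Commd1, was called at 4 Hz (0.89, adjusted p = 0.0120). Over all genes, that fit called 1 upregulated and 0 downregulated at 1 Hz, and 1.14% and 0.743% at 4 Hz. Trappc9, a trafficking complex subunit, rose from 14.3 ± 2.03 to 30.9 ± 8.996 CPM in the 1 Hz group and 26.7 ± 7.13 CPM in the 4 Hz group, and Commd1, a regulator of copper handling and endosomal sorting, rose from 22.9 ± 2.49 to 33.3 ± 5.86 and 41.0 ± 5.76 CPM (SD, n = 6 each). Slc22a18 was the other gene at 1 Hz. At 4 Hz, the zinc finger gene Zim1, a neighbor of Peg3, rose from 36.3 ± 7.85 to 54.6 ± 11.3 CPM, and Dcn, the matrix proteoglycan decorin, fell from 35.9 ± 13.1 to 23.6 ± 2.10 CPM (SD, n = 6 each). For several of these genes, Trappc9, Commd1, and Dcn among them, imprinting is known to be limited to certain tissues, and whether they are imprinted in C2C12 muscle was not measured.

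**Figure D5:**
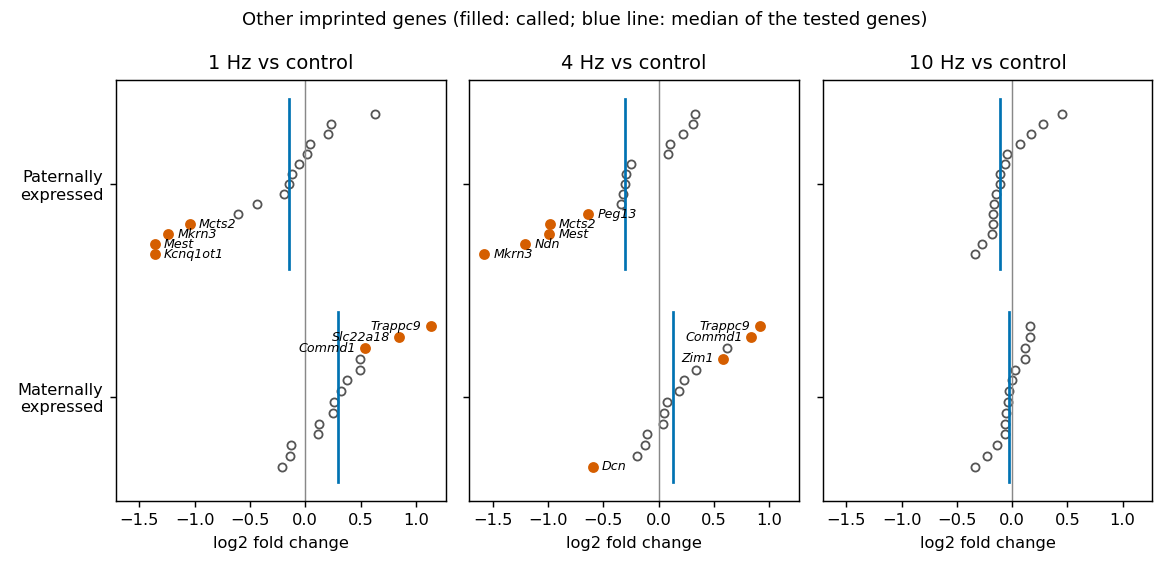
Log2 fold change against control (x axis) of the tested paternally expressed (15) and maternally expressed (14) imprinted genes outside the set, at 1, 4, and 10 Hz. Filled points passed both thresholds and are named, open points did not, blue lines are medians (-0.15, -0.30, and -0.11, and 0.29, 0.13, and -0.032), and at 10 Hz all points are open.

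Of 17 listed genes that keep imprints or shape DNA methylation, 14 were tested. At 1 Hz, 0 were called upregulated and 1 downregulated (Uhrf1, a partner of the maintenance methyltransferase), beside 9.34% and 8.99% of all genes. At 4 Hz, 2 were upregulated and 2 downregulated (10.5% and 9.61% of all genes). At 10 Hz, 1 was upregulated and 0 downregulated (1.24% and 0.623% of all genes). Zfp57, a zinc finger protein that protects methylation at imprinting control regions, rose from 10.5 ± 2.23 to 17.9 ± 2.96 CPM under 4 Hz light and 15.6 ± 2.47 CPM under 10 Hz light (SD, n = 6 each). Tet1, which oxidizes methylated cytosine, fell at 4 Hz from 6.85 ± 1.19 to 4.61 ± 0.907 CPM (SD, n = 6 each). The other calls at 4 Hz were Dnmt3l, upregulated, and Uhrf1, downregulated. The medians of the list were -0.015, -0.22, and -0.16 (log2). Once the small RNA share was a covariate, 0 of the 14 were called at 1 Hz by edgeR, Tet2, a relative of Tet1, was the gene called at 4 Hz (-0.65, adjusted p = 0.0123), and Zfp57 was still called at 10 Hz (0.54, adjusted p = 0.0292). Over all genes, that fit called 1 upregulated and 0 downregulated at 1 Hz. It called 1.14% and 0.743% at 4 Hz, and 0.939% and 0.608% at 10 Hz.

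As a noncoding RNA, H19 was set beside 17 other long noncoding RNAs, most of them nuclear, of which 15 were tested. At 1 Hz, 2 were called upregulated and 4 downregulated, at 4 Hz 1 and 4, and at 10 Hz 0 and 0 by edgeR, where 5 had an unadjusted p below 0.05. The shares over all genes were 9.34% and 8.99%, 10.5% and 9.61%, and 1.24% and 0.623%. Malat1, a nuclear-retained RNA with an RNase P-processed end in place of a poly(A) tail, fell from 1683 ± 463 to 670 ± 185 CPM under 1 Hz light and 1044 ± 317 CPM under 4 Hz light, and Neat1, the scaffold of paraspeckles, from 180 ± 47.3 to 105 ± 34.5 and 127 ± 23.1 CPM (SD, n = 6 each). Pvt1, which lies beside Myc, rose from 22.7 ± 2.19 to 34.3 ± 2.46 and 39.05 ± 4.98 CPM (SD, n = 6 each). Among these RNAs, 0 of the 15 were called at 1 Hz by edgeR with the small RNA share as a covariate (Malat1 -0.43, adjusted p = 0.645, and Neat1 -0.27, adjusted p = 0.775), and Pvt1 was the gene called at 4 Hz (0.54, adjusted p = 0.0423). Over all genes, that fit called 1 upregulated and 0 downregulated at 1 Hz, and 1.14% and 0.743% at 4 Hz. Whether H19 differs from this list was not tested.

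Over the 24 libraries, the genes whose log2 CPM followed H19 most closely, among 8984 genes, were Ybx1, an RNA- and DNA-binding protein gene (Pearson r = 0.89), Hspb6, a small heat shock protein gene (r = 0.86), and Mb, the myoglobin gene (r = 0.83). For Igf2, they were the ribosomal protein gene Rpl4 (r = 0.74), Vti1a, which encodes a vesicle fusion protein (r = 0.69), and Bri3bp (r = 0.67). These values describe libraries that share groups and scaling, and no test was made. Meg3 was too low to be compared in this way.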

How the data were processed

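RNA from 24 tissues was analysed in 4 groups of 6, taken from the sample titles. The paper gives poly(A) selection for the libraries, while the submitters noted ribodepletion for low-input samples that they did not name. The authors ran nf-core/rnaseq on paired-end reads, with GRCm39 and an Ensembl annotation. Neither its release nor whether counting was strand-specific is given in the sources used here. The submitters' processing notes name STAR, Salmon, BWA 0.7.12-r1039, and bedtools 2.25.0. One deposited table held estimated counts per gene from salmon, without normalization, and the other held TPM, which the authors scaled within each library. Per library, 6.62% to 10.6% of all values, zeros included, were not whole, and counts were rounded.

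The genes and lists were chosen with earlier results of these data known. Of 56941 genes, 13318, with 99.8% of counts, passed filterByExpr. edgeR 4.0.16 (R 4.3.3) fitted all 24 libraries together with TMM scaling (common dispersion 0.0233). In simulated 1 Hz and control libraries, 200 of 13318 genes were changed by a log2 fold change of 1, and 13120 passed the filter. It recovered 90.5% of the changed genes, with 3.21% of calls false. Far fewer genes were changed there than were called at 1 Hz, so these rates need not carry over to the data. DESeq2 1.42.0 and limma 3.58.1 were alternatives. Small RNA shares used the raw total. Positions came from GENCODE M39, and sequences from RefSeq tables. Genes named are all 10 members. From each list, they are up to 3 called genes in each direction with the largest change and a mean of at least 5 CPM. For H19 and Igf2, they are the 3 genes of highest correlation with a mean of at least 10 CPM. List genes of lower level are named where the calls were few, after their values were seen. The tissues are called biological replicates by the authors, and p-values measure the spread between these libraries.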

Additional observations from a re-analysis of the deposited data

How the results depend on the processing

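Cdkn1c had low counts, and no comparison of groups was possible for the 4 genes of the Dlk1-Dio3 locus. The called difference of Igf2r between 10 and 1 Hz passed under all 11 alternatives (-0.63 to -0.54, log2, adjusted p from 4.78e-08 to 0.0438) and when any of its 12 libraries was left out (-0.67 to -0.55). The mean small RNA share also differed between these groups, at 29.3 CPM for 1 Hz and 124 CPM for 10 Hz, and its part was not tested. The called difference of Cdkn1c at 4 Hz against control passed under 10 of 11 alternatives and when any of the 12 libraries was left out (0.91 to 1.19). With the small RNA share as a covariate, it was 0.57, and 0 members were then called upregulated. The cause was not tested.

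By adjusted p alone, 1 member was upregulated at 1 Hz (Igf2r) and 2 at 4 Hz (Cdkn1c and H19) against control, and 1 was downregulated each for 4 against 1 Hz and 10 against 4 Hz. Of all 13318 genes tested, 2414 and 2558 were upregulated by this rule at 1 and 4 Hz. For 4 against 1 Hz and 10 against 4 Hz, 873 and 1579 genes were downregulated. Without the low-count filter, 1 member was upregulated at 1 Hz, beside 1418 of 31472 genes. With DESeq2, limma on log2(TPM + 1), or limma on log2(TPM + 0.1), 1 member was upregulated at 10 Hz (Cdkn1c). The genes upregulated in these fits were 191 of 13318, 77 of 13627, and 85 of 13627. With limma on log2(TPM + 0.1), 1 member was downregulated for 4 against 1 Hz (Igf2r), beside 479 of 13627 genes. With only the 12 libraries compared, 1 was upregulated there (Cdkn1c), beside 218 of 12632 genes. In each case the main count of members was 0, except 1 at 4 Hz against control. Leaving out a library gave 0 to 1 upregulated at 1 Hz, with 1 in 4 of 12 cases, and 0 to 1 at 10 Hz, with 1 in 1 of 12.

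Differences that were not called changed sign in some fits. Under total count scaling, these were H19 at 1 Hz (-0.054), Igf2r at 4 Hz (-0.0020), and Peg3 at 10 Hz (-0.0091). Without the low-count filter, they were Peg3 at 1 Hz (0.021) and 4 Hz (0.012). Under limma on log2(TPM + 1), with or without its filter, they were H19 (-0.030) and Igf2 (-0.013) at 1 Hz, Igf2 (-0.045) and Igf2r (-0.085) at 4 Hz, and Peg3 at 10 Hz (-0.090). With log2(TPM + 0.1), Igf2 was -0.014 at 1 Hz and -0.045 at 4 Hz, H19 -0.030 at 1 Hz, Igf2r -0.089 at 4 Hz, and Peg3 -0.093 at 10 Hz. With the small RNA share as a covariate, they were H19 (-0.017) and Cdkn1c (-0.0034, from 0.50) at 1 Hz, Grb10 at 4 Hz (-0.0094, from 0.22), Peg3 at 10 Hz (-0.0068), and Cdkn1c for 10 against 4 Hz (0.052, from -0.36). Leaving out a library moved H19 at 1 Hz from -0.012 to 0.059, Igf2 at 10 Hz from -0.11 to 0.0049, Grb10 between -0.15 and 0.099 at 1 Hz and between -0.23 and 0.020 at 10 Hz. It moved Peg3 between -0.061 and 0.035 at 1 Hz, between -0.075 and 0.022 at 4 Hz, and between -0.039 and 0.11 at 10 Hz. The small RNA share at 10 Hz minus control ranged from -35.8 to 11.2 CPM when a library was left out. This alternative, and the list counts with the small RNA share as a covariate, were added with the data in view.

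The replicate numbers were not used as pairs in the main fit. Of 36 pairs of samples with the same number, 10 had a correlation of deviations over 0.1 (-0.18 to 0.36), and 10 of 24 libraries correlated best with their own number. The median correlation was 0.017 for these pairs and -0.013 for pairs with different numbers. These values do not settle whether the numbers pair the samples in part. With the replicate number as a block, Cdkn1c at 4 Hz was 1.07 (adjusted p = 0.000799), Igf2r at 10 against 1 Hz was -0.59, and the numbers of members called were the same in all 6 comparisons.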

Other observations

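Markers of undifferentiated or reserve cells were not described above. Of 7 tested, Pax7 was called upregulated at 1 and 4 Hz and Myf5, a myogenic factor of myoblasts, fell at 4 Hz from 21.1 ± 6.81 to 13.8 ± 2.47 CPM (SD, n = 6 each), and the summed level of the list was 296 to 378 TPM in control, 342 to 374 TPM at 1 Hz, 341 to 373 TPM at 4 Hz, and 343 to 405 TPM at 10 Hz. Of markers of other cell types, the adipogenic factor Cebpa was called upregulated at 1 and 4 Hz (18.0 ± 2.30 CPM in control, 29.7 ± 5.74 at 1 Hz, and 28.5 ± 4.07 at 4 Hz) and the osteogenic factor Runx2 at 1 Hz (34.1 ± 5.83 against 51.6 ± 7.01 CPM, SD, n = 6 each). The shares of all genes called upregulated and downregulated were 9.34% and 8.99% at 1 Hz and 10.5% and 9.61% at 4 Hz.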
